A study of Danio rerio with 6 samples.

Results

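Protocadherins are the largest subfamily of the cadherin superfamily of calcium-dependent adhesion proteins, and most of them are expressed in the nervous system. Clustered protocadherins are encoded in arrays of variable exons, each with its own promoter, and in the alpha and gamma arrays the variable exons are spliced to constant exons shared by the array. In mouse neurons, promoter choice gives single cells different sets of isoforms, and the homophilic binding of these isoforms takes part in self-avoidance of dendrites and axons. Non-clustered protocadherins lie alone in the genome and are grouped as delta-1, delta-2 and other members, with roles in axon outgrowth, synapse formation, cell movement and, for *pcdh15*, sensory hair cells.

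The 58 genes described here are all those of the 32520 listed genes whose symbol starts with pcdh, under 53 different symbols. By symbol, 38 belong to the clustered arrays and 20 are non-clustered. Of the clustered genes, 3 are alpha genes of cluster 1, 19 gamma genes of cluster 1, 14 alpha genes of cluster 2 and 1 a gamma gene of cluster 2, and the last is *pcdhb*. The non-clustered genes comprise 7 of the delta-1 group, 8 of the delta-2 group and 5 others. Both *pcdh2ab11* and *pcdh2ac* had no read in any library, and the other 56 genes passed the filter on low values.

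RNA-Seq was performed on zebrafish heads at 10 dpf, in 3 pools of WT larvae (labelled ABwt) and 3 pools of *fbln1*-/- larvae homozygous for the CRISPR/Cas9 allele ulg075, all in the AB background and obtained from crosses of heterozygous parents. *fbln1* encodes fibulin 1, a protein of the extracellular matrix, and every cell of the mutant carries the allele. Each pool held 21 heads by the labels (about 20 in the series' design text), so a value is a mean over many fish. The labels and the description of the RNA extraction name heads, while other passages of the study's text name whole larvae for this experiment. Heads are written here after the labels, and which tissue the libraries hold was not settled, which bears on the markers of intestine, pancreas and muscle and on every protocadherin level below. The values are normalized counts, that is, reads per gene divided by 1 size factor per library.

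The *fbln1* transcript itself (ENSDARG00000103311) gave 77.4, 136 and 70.4 normalized counts in the WT pools, in the order 1, 2 and 3 kept below, and 93.2, 53.1 and 39.9 in the mutant pools. The groups overlapped, and the log2 fold change was -0.63 (SE 0.33, limma adjusted p = 0.162), so the transcript level does not separate the labelled groups. The reads assigned to genes numbered 15174207 to 18721515 per library. Markers of other tissues differed between the groups. All 11 listed intestine genes, all 10 skin genes, all 11 exocrine pancreas genes, 11 of 12 muscle genes and 7 of 11 cartilage and bone genes rose in the mutant. Over all tested genes, 18.9% rose. The summed intestine markers ranged from 4416 to 7270.3 normalized counts in WT and from 37111 to 69299 in the mutant. The part of these tissues in the results on protocadherins was not tested, and in pooled heads fewer cells of a type and less RNA per cell cannot be told apart.

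Protocadherin genes had mostly lower values in the mutant heads, and about as many passed the test as did not. At an adjusted p under 0.05 (limma with Benjamini-Hochberg adjustment over 20691 genes), 27 of the 56 tested genes fell, 1 rose and 28 did not pass the test. Over all tested genes, 15.1% fell and 18.9% rose. The decreases were small. With an additional limit of 0.5 on the log2 fold change, 4 protocadherin genes were lower, against 2.68% of all tested genes, and 1 was higher, against 15.4%. The sign was shared widely, and 50 of the 56 genes had a negative log2 fold change, against 52.3% of all tested genes. The 56 genes share libraries, and alpha or gamma genes of an array share constant exons, so their signs may not be separate measurements. In 29 of the 56 genes every mutant pool was below every WT pool, against 24.3% of all tested genes, and in 1 gene every mutant pool was above, against 24.5%. The shares of 2.68%, 15.4%, 52.3%, 24.3% and 24.5% are over genes of all levels. They were not counted at the levels of the protocadherin genes.

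Clustered and non-clustered genes had nearly the same typical change. The median log2 fold change was -0.37 over 36 clustered genes and -0.35 over 20 non-clustered genes, and that of all tested genes was -0.03. The median of all tested genes was -0.15 at a mean of at least 500 normalized counts and 0.05 below it. Of the clustered genes, 13 fell and none rose. Of the non-clustered genes, 14 fell and 1 rose. Their counts differed in precision, since the median over genes of the mean level was 285 normalized counts for clustered and 1086 for non-clustered genes, with median standard errors of 0.15 and 0.09 on the log2 scale. Among genes with a mean of at least 500 normalized counts, 9 of 13 clustered and 13 of 16 non-clustered genes fell, which together are 22 of 29, against 34.6% of all tested genes at that level. Below it, 5 of 27 protocadherin genes fell, against 6.96% of all tested genes. Whether the 2 classes differed was not tested.

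**Figure D1:**
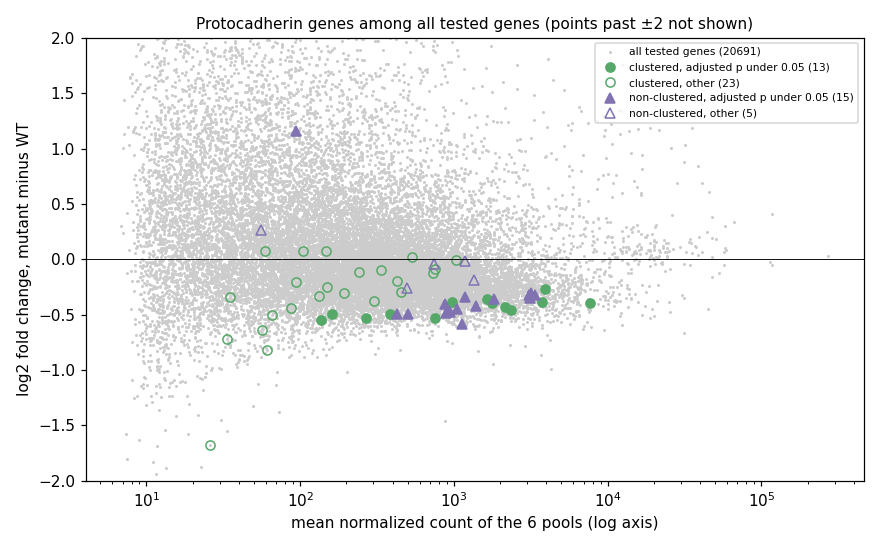
Log2 fold change of mutant over WT (vertical axis) against the mean normalized count of the 6 pools (horizontal log axis) for all 20691 tested genes in grey, the 36 clustered genes as circles and the 20 non-clustered genes as triangles, filled where the adjusted p was under 0.05 and open otherwise. Genes beyond 2 in either direction are not drawn. Most protocadherin genes lie between 0 and -0.6, and 1 filled triangle stands at 1.16.

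The summed levels gave the size of the change without regard to the number of genes tested. The 38 clustered genes together had 37889.6, 34219.9 and 35053 normalized counts in WT and 28510.1, 25079 and 31352 in the mutant. Their mutant mean was 79.3% of the WT mean. The 20 non-clustered genes together had 30830.0, 28741 and 30341 in WT and 24089, 21299 and 26329 in the mutant, 79.8% of WT. In both sums every mutant pool was below every WT pool, mutant pool 2 was the lowest and mutant pool 3 the highest of the mutant pools. The same order was frequent in single genes. Mutant pool 2 was the lowest of the mutant pools in 41 of the 56 tested genes and mutant pool 3 the highest in 42. This order was not counted over all tested genes, so it is not read as a trait of protocadherin genes. The summed neuron markers had the same order, with 82053, 81073 and 87327 in the mutant pools. The summed glial markers did not, with 47540, 47224 and 46188.

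The listed neuron markers were mixed. Of 20 markers, 3 fell (*eno2*, *snap25b* and *syt1a*), 5 rose (*gap43*, *nefla*, *nefma*, *stmn2b* and *tuba1c*) and 12 did not pass the test, with a median log2 fold change of -0.14. Several of the genes that rose encode cytoskeletal proteins of growing or long axons. The summed level of the 20 markers was 90648 to 92482 normalized counts in WT and 81073 to 87327 in the mutant. Divided by this sum, the clustered genes stood at 87.1% and the non-clustered genes at 87.6% of WT. With each library scaled to the neuron markers, 9 protocadherin genes fell, against 4% of all tested genes, and 1 rose. This 4% is over genes of all levels and was not counted at the levels of the protocadherin genes. Of the 9, 3 were clustered and 6 non-clustered. On that scale the median log2 fold change was -0.23 for clustered and -0.21 for non-clustered genes, and that of all tested genes was 0.11. Of 14 neural progenitor markers, 6 rose and none fell, with summed levels of 8427 to 9266 normalized counts in WT and 14073 to 15173 in the mutant. Those that rose were *fabp7a*, *hmgb2a*, *mki67*, *notch1a*, *pcna* and *sox3*. Most of the difference between the sums lay in *fabp7a*, *hmgb2a*, *mki67* and *pcna*. The libraries hold many tissues, and which cells gave these reads was not tested. The sum is therefore not read as the number of neural progenitors. The others, *ascl1a*, *dla*, *her4.1*, *her6*, *insm1a*, *nes*, *neurog1* and *sox2*, did not pass the test. Of 12 glial markers, 2 rose and 1 fell. Without the scaling to neuron markers, 15.1% of all tested genes fell and 18.9% rose. Scaling to neuron markers was added after the data had been seen, and the part of neuron and progenitor content in the result was not tested.

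The number of genes that fell depended on single libraries. It was 11 without WT pool 1, against 6.21% of all tested genes, 15 without WT pool 3, against 8.25%, and 17 without mutant pool 2, against 9.02%. These shares are over genes of all levels and were not counted at the levels of the protocadherin genes. All 27 genes kept a negative log2 fold change when any 1 library was left out. Of the 23 named genes that fell, 9 kept an adjusted p under 0.05 (limma) without each library in turn, namely *pcdh8*, *PCDH8*, both *pcdh11* genes, *pcdh7b*, *pcdh1a*, *pcdh1g1*, *pcdh1g29* and *pcdh1gc6*. The other 14 lost it without at least 1 library, 12 of them without WT pool 1, 2 without WT pool 2, 10 without WT pool 3, 4 without mutant pool 1 and 7 without mutant pool 2, with highest adjusted p-values (limma) between 0.0513 for *pcdh2g28* and 0.127 for *pcdh2ab9*.

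Among the delta-1 genes, which in mammals comprise *Pcdh1*, *Pcdh7*, *Pcdh9* and *Pcdh11*, 6 of 7 fell, and in all 7 every mutant pool was below every WT pool. All 7 have means above 500 normalized counts, where 34.6% of all tested genes fell. Every mutant pool was below every WT pool in 24.3% of all tested genes, a share over all levels that was not counted at this level. Their summed level was 9738, 9244 and 9978 normalized counts in WT and 7298, 6876 and 8326 in the mutant, 77.7% of WT. The most precise decrease was that of *pcdh11* (ENSDARG00000105441), with 1037, 1002 and 1070.1 normalized counts in WT and 747, 706 and 769 in the mutant. The mutant pools lay close together and well below the WT pools. The log2 fold change was -0.48 (SE 0.07, 95% interval -0.65 to -0.32, limma adjusted p = 0.000922). A further gene listed as *pcdh11* (ENSDARG00000098652, PCDH11X in the reference table of names) had 1613, 1513 and 1661 in WT and 1138, 1058 and 1409 in the mutant. It fell by 0.42 on the log2 scale (SE 0.10, limma adjusted p = 0.0111), with mutant pool 3 nearest to WT.

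The copies of *pcdh7*, whose Xenopus counterpart NF-protocadherin takes part in retinal axon growth, were both lower in every mutant pool, and 1 passed the test. For *pcdh7b* (ENSDARG00000060610), the WT pools had 1207, 1116 and 1302 normalized counts and the mutant pools 859, 822 and 974. It fell by 0.45 on the log2 scale (SE 0.09, limma adjusted p = 0.00416). For *pcdh7a* (ENSDARG00000078898), the WT pools had 1468, 1409.9 and 1413 and the mutant pools 1245, 1172 and 1354. Its groups did not overlap either, but the log2 fold change of -0.19 did not pass the test (SE 0.08, 95% interval -0.36 to -0.02, limma adjusted p = 0.0784). Without mutant pool 3 it passed, at -0.24 (limma adjusted p = 0.0278). The difference between the copies was not tested.

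The remaining delta-1 genes fell by similar amounts. *pcdh9* (ENSDARG00000063264) had 985, 944 and 1063 normalized counts in WT and 697, 683 and 892 in the mutant (log2 fold change -0.41, SE 0.11, limma adjusted p = 0.0151). *Pcdh1* is an adhesion molecule of epithelia and brain in mammals, and both zebrafish copies were lower in every mutant pool. *pcdh1a* (ENSDARG00000062720) had 1286, 1318 and 1366 in WT and 1043, 983 and 1114 in the mutant (log2 fold change -0.34, SE 0.08, limma adjusted p = 0.007). *pcdh1b* (ENSDARG00000036175) had 2142, 1942 and 2104 in WT and 1569, 1450.1 and 1814 in the mutant (log2 fold change -0.36, SE 0.09, limma adjusted p = 0.012). All 10 listed skin markers rose, against 18.9% of all tested genes, and the part of skin in the levels of both copies was not tested.

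**Figure D2:**
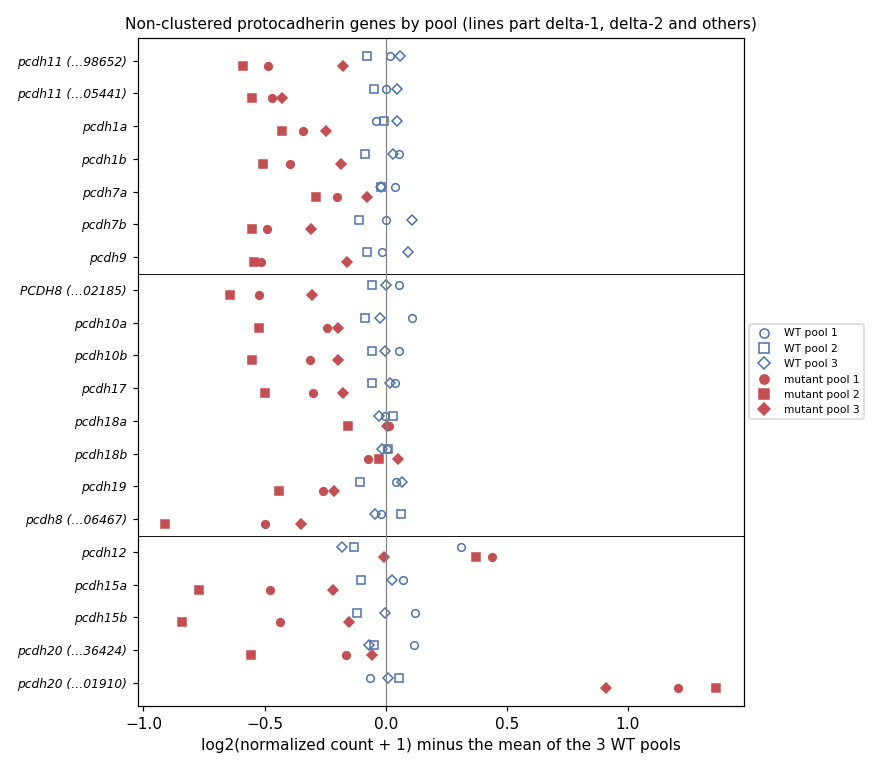
Level of the 20 non-clustered genes in each pool, as log2(normalized count + 1) minus the mean of the 3 WT pools of that gene. Open blue symbols are WT pools, filled red symbols mutant pools, and the shape gives the pool number. All 7 delta-1 genes have their mutant pools left of their WT pools, *pcdh18a* and *pcdh18b* do not, and *pcdh20* (ENSDARG00000101910) has its mutant pools to the right.

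Among the delta-2 genes, several of which bind the actin-regulating WAVE complex in mammals, 6 of 8 fell. All but *PCDH8* have means above 500 normalized counts, where 34.6% of all tested genes fell, against 15.1% over all levels. Their summed level was 18592, 17325 and 18067 normalized counts in WT and 14886, 12895 and 15845 in the mutant, 80.8% of WT. The largest decrease was that of *pcdh8* (ENSDARG00000006467), known as paraxial protocadherin for its role in cell movements and somite formation in Xenopus and zebrafish embryos. It had 1325, 1405 and 1305 normalized counts in WT and 951, 715 and 1054 in the mutant. The mutant pools were spread more widely than the WT pools, and none reached them. The log2 fold change was -0.59 (SE 0.12, 95% interval -0.86 to -0.31, limma adjusted p = 0.00537). The gene listed as *PCDH8* (ENSDARG00000102185) had 521, 482 and 501 in WT and 348, 321 and 406 in the mutant, and fell by 0.49 on the log2 scale (SE 0.10, limma adjusted p = 0.00559).

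The copies of *pcdh10*, whose mouse counterpart OL-protocadherin takes part in the growth of striatal and thalamic axons, fell by about the same amount. *pcdh10a* (ENSDARG00000099729) had 3671, 3215 and 3349 normalized counts in WT and 2881, 2368 and 2970.3 in the mutant (log2 fold change -0.32, SE 0.10, limma adjusted p = 0.0251). *pcdh10b* (ENSDARG00000102824) had 3646, 3375 and 3502 in WT and 2820.0, 2391 and 3062 in the mutant (log2 fold change -0.35, SE 0.09, limma adjusted p = 0.0142). *pcdh17*, which in mouse organizes synapses of the basal ganglia, and *pcdh19*, which takes part in forming neuronal columns of the zebrafish optic tectum and is an epilepsy gene in humans, also fell. *pcdh17* (ENSDARG00000027041) had 3857, 3611 and 3802 in WT and 3051, 2662 and 3326 in the mutant (log2 fold change -0.32, SE 0.09, limma adjusted p = 0.0163). *pcdh19* (ENSDARG00000034344) had 3617, 3263 and 3683 in WT and 2936, 2589 and 3029 in the mutant (log2 fold change -0.31, SE 0.08, limma adjusted p = 0.0171). In all 4 of these genes mutant pool 2 was the lowest library.

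The copies of *pcdh18* were the delta-2 genes that did not pass the test. *Pcdh18* binds the adaptor Dab1 in mouse, and *pcdh18b* takes part in motor axon branching in zebrafish. *pcdh18a* (ENSDARG00000089805) had 754, 770.0 and 740.5 normalized counts in WT and 761, 677 and 757 in the mutant. *pcdh18b* (ENSDARG00000052494) had 1201, 1204 and 1184 in WT and 1137, 1173 and 1241 in the mutant. In both genes the groups overlapped. The log2 fold change was -0.05 for *pcdh18a* (SE 0.08, 95% interval -0.22 to 0.13, limma adjusted p = 0.688) and -0.02 for *pcdh18b* (SE 0.07, 95% interval -0.17 to 0.14, limma adjusted p = 0.88). Both signs turned when libraries were scaled to the neuron markers, with 0.09 for *pcdh18a* and 0.12 for *pcdh18b*, and that of *pcdh18b* also with TMM scaling (0.02).

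Of the other non-clustered genes, both copies of *pcdh15* fell. Pcdh15 and cadherin 23 form the tip links of sensory hair cells, and in zebrafish *pcdh15a* serves hearing and balance while *pcdh15b* has been linked to photoreceptors. *pcdh15a* (ENSDARG00000098257) had 611, 542 and 592 normalized counts in WT and 417, 339.6 and 499 in the mutant (log2 fold change -0.49, SE 0.13, limma adjusted p = 0.0153). *pcdh15b* (ENSDARG00000008127) had 1190.4, 1006 and 1091 in WT and 808, 610.5 and 985 in the mutant (log2 fold change -0.47, SE 0.15, limma adjusted p = 0.0292). In both the mutant pools spread widely, from mutant pool 2 at the bottom to mutant pool 3 nearest to the WT pools. The markers of hair cells and photoreceptors were measured beside them, and their part in the decrease was not tested. The summed hair cell markers had 8461 to 8904 normalized counts in WT and 8177 to 8704 in the mutant, and 3 of 12 rose and 1 fell. Most of this sum was *calm1a*, with 6198 to 6401 in WT and 5777 to 6104 in the mutant. The sum thus says little of the other hair cell markers. The summed photoreceptor markers had 126914 to 148255 in WT and 139875 to 165444 in the mutant, and 5 of 15 rose and 1 fell. The largest parts of this sum were *rho* (WT mean 55638) and *opn1sw1* (WT mean 33187), and neither passed the test. The marker that fell was *crx* (log2 fold change -0.44, limma adjusted p = 0.00947). Those that rose were *gnat2*, *opn1lw1*, *opn1lw2*, *opn1mw1* and *opn1sw2*. A list of hair cell transduction and other hair bundle genes held 11 tested genes. Of these, *cdh23* (ENSDARG00000007561, log2 fold change -0.59, limma adjusted p = 0.0473), *myo7aa* and *whrna* fell and *myo15aa* rose. *cdh23* had low counts, with 93.9, 75.4 and 83.2 in WT and 48.2, 51.0 and 69.3 in the mutant. A further gene listed as *cdh23* (ENSDARG00000094454), with means of 8.30 in WT and 8.54 in the mutant, did not pass the filter on low values. The genes *cib2*, *lhfpl5a*, *TMC1*, *tmc2a*, *tmie*, *ush1c* and *ush1ga* did not pass the test. These counts and those of the markers stand beside 15.1% of all tested genes that fell and 18.9% that rose.

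Of the genes listed as *pcdh20*, 1 rose and the other did not pass the test. The gene ENSDARG00000101910, called *pcdh20l* in the reference table of names, had 54.7, 59.4 and 57.6 normalized counts in WT and 133, 149 and 108 in the mutant. Every mutant pool was far above the WT pools, which lay within a few counts of each other. The log2 fold change was 1.16 (SE 0.18, 95% interval 0.77 to 1.55, limma adjusted p = 0.000852), and this was the only protocadherin gene that rose. The gene ENSDARG00000036424 had 582, 519 and 511 in WT and 479, 365 and 516 in the mutant, so that mutant pool 3 lay within the WT range. Its log2 fold change of -0.26 did not pass the test (SE 0.13, 95% interval -0.54 to 0.02, limma adjusted p = 0.139). Without mutant pool 3 it passed, at -0.36 (limma adjusted p = 0.0447), and without mutant pool 2 the value was -0.11 (limma adjusted p = 0.444). Among the mutant pools, *pcdh20l* was highest in mutant pool 2, where most protocadherin genes were lowest, and lowest in mutant pool 3.

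**Figure D3:**
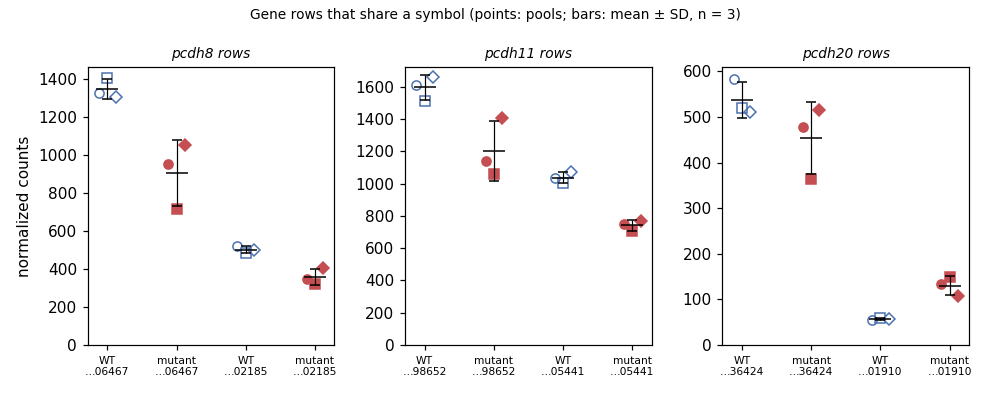
Normalized counts of the gene pairs listed as *pcdh8*, *pcdh11* and *pcdh20*, with each pair told apart by the end of its identifier. Points are single pools and bars show the mean ± SD (n = 3 pools). Both genes are lower in the mutant for *pcdh8* and *pcdh11*, while *pcdh20* (ENSDARG00000101910) is higher in the mutant, at 108 to 149 against 54.7 to 59.4.

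*pcdh12*, whose mammalian counterpart is expressed in endothelium, had low counts. It had 61.9, 45.2 and 43.7 normalized counts in WT and 67.6, 64.6 and 49.4 in the mutant (ENSDARG00000076594). The groups overlapped, and the log2 fold change of 0.27 did not pass the test (SE 0.23, 95% interval -0.24 to 0.77, limma adjusted p = 0.395). Among 12 endothelial markers, 1 fell (*cdh5*) and none rose, against 15.1% and 18.9% of all tested genes.

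In the clustered arrays, a read from a constant exon cannot be given to 1 variable exon, and the sources used here do not state how such reads were assigned. A sum over a sub-cluster does not change with how such reads were split among its listed genes. It holds only genes whose symbol starts with pcdh, so reads given to other genes or left out are missing from it. The gamma genes of cluster 1 together had 21195, 18767 and 19154 normalized counts in WT and 15629, 13583 and 16821 in the mutant, 77.9% of WT. All 19 had a negative log2 fold change, 10 fell, and the median was -0.38. In 11 of the 19 the groups did not overlap. Over all tested genes, 52.3% had a negative log2 fold change, 15.1% fell (34.6% of those with a mean of at least 500 normalized counts), and in 24.3% every mutant pool was below every WT pool. The 52.3% and 24.3% were not counted by level. The 19 genes share libraries and constant exons, so their changes may not be separate measurements.

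Among these gamma genes, *pcdh1g29* (ENSDARG00000104497) changed with the smallest adjusted p of the clustered genes. It had 2665, 2401 and 2363 normalized counts in WT and 1911, 1663 and 1960.0 in the mutant (log2 fold change -0.43, SE 0.08, 95% interval -0.61 to -0.24, limma adjusted p = 0.00391). *pcdh1gc6* (ENSDARG00000103950), a C-type gamma gene by its name, had 2943, 2527 and 2645 in WT and 1915, 1759.5 and 2243 in the mutant (log2 fold change -0.46, SE 0.10, limma adjusted p = 0.00552). The C-type isoforms of mouse differ from the others in being expressed by most neurons rather than by random choice. *pcdh1gc5* (ENSDARG00000104826) had 4579, 4155 and 3903 in WT and 3519.8, 2594 and 3659 in the mutant (log2 fold change -0.38, SE 0.12, limma adjusted p = 0.0326). None of these 3 genes had overlapping groups, and mutant pool 2 was the lowest library in each.

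The largest decreases among the clustered genes that passed the test were in gamma genes, mostly with lower counts. *pcdh1g14* (ENSDARG00000104057) had 163, 139 and 180.3 normalized counts in WT and 119.9, 88.5 and 123 in the mutant (log2 fold change -0.55, SE 0.17, limma adjusted p = 0.0311). *pcdh1g31* (ENSDARG00000100670) had 1102, 809 and 759 in WT and 496, 596 and 753 in the mutant (log2 fold change -0.53, SE 0.16, limma adjusted p = 0.0284). Mutant pool 3 of *pcdh1g31* lay only just below WT pool 3. *pcdh1g1* (ENSDARG00000104007) had 322, 318 and 302 in WT and 198, 201 and 258 in the mutant (log2 fold change -0.53, SE 0.12, limma adjusted p = 0.00918). *pcdh1gb9* (ENSDARG00000088475) had 172, 199 and 196 in WT and 138, 130.2 and 133 in the mutant (log2 fold change -0.49, SE 0.13, limma adjusted p = 0.0135). The mutant pools of *pcdh1gb9* differed little from each other.

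The log2 fold changes of the gamma genes of cluster 1 were set beside their order along the chromosome. Of the 19 genes, 14 matched a symbol of the GRCz12tu annotation of RefSeq, which was used for gene order and not for coordinates. Spearman's rho between the place in this order and the log2 fold change was -0.12 over these 14 genes, which share libraries and constant exons. The median log2 fold change was -0.38 both for the first 7 and for the last 7.

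The alpha genes of cluster 1 had the sum nearest to WT among the alpha and gamma sub-clusters. It was 2085, 1957 and 1989.9 normalized counts in WT and 1838, 1802 and 2032 in the mutant, 94.0% of WT, with mutant pool 3 within the WT range. Of the 3 genes, *pcdh1a3* (ENSDARG00000103602) fell, with 504, 365 and 474 in WT and 367, 256 and 333 in the mutant (log2 fold change -0.49, SE 0.15, limma adjusted p = 0.0313). Mutant pool 1 of this gene was just above WT pool 2. *pcdh1a4* (ENSDARG00000097170) had 520.3, 581 and 496 in WT and 485, 513 and 629.9 in the mutant (log2 fold change 0.02, 95% interval -0.23 to 0.27). *pcdh1a6* (ENSDARG00000104598) had 1061, 1012 and 1020.0 in WT and 987, 1033 and 1069 in the mutant (log2 fold change 0.00, 95% interval -0.16 to 0.16). The limma adjusted p was 0.905 for *pcdh1a4* and 0.984 for *pcdh1a6*, and the difference between these genes and the gamma genes was not tested. These 3 genes are described because no other listed gene has a symbol of this sub-cluster, and 3 genes are too few to describe alpha genes of this cluster in general.

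**Figure D4:**
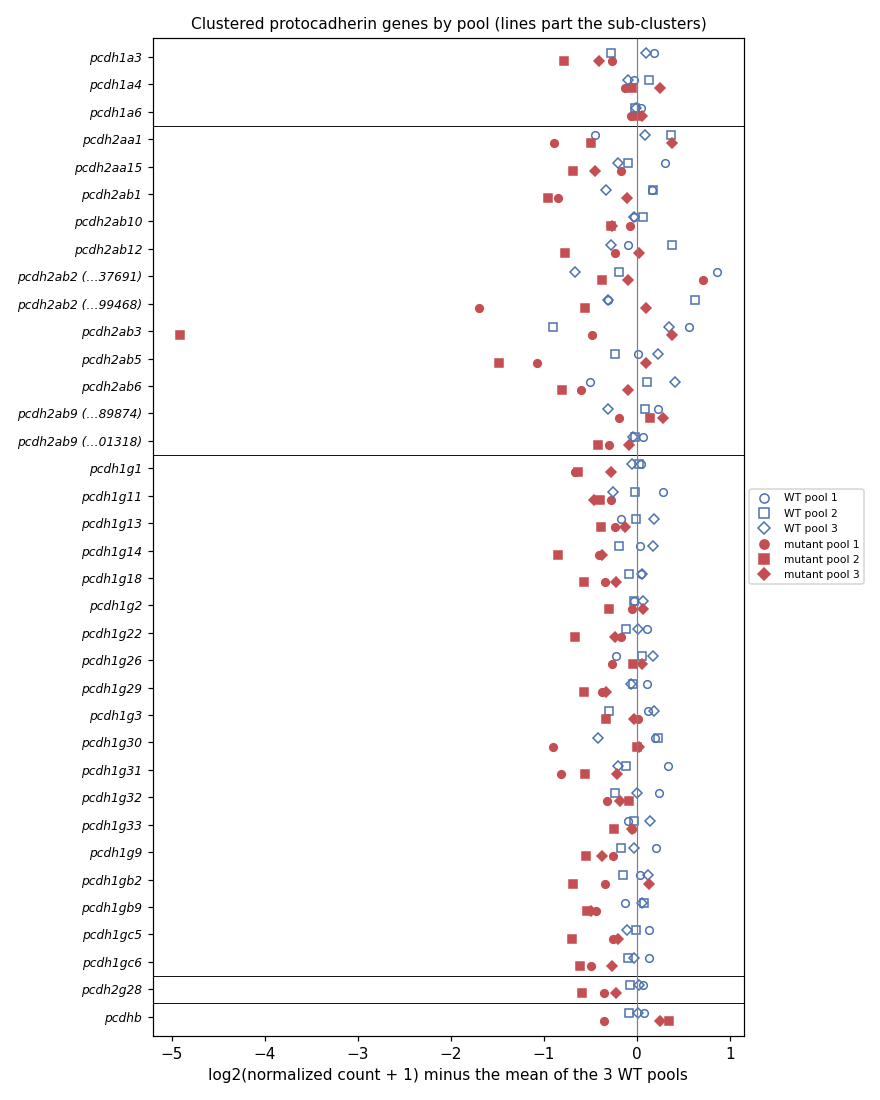
Level of the 36 tested clustered genes in each pool, as log2(normalized count + 1) minus the mean of the 3 WT pools of that gene, with the sub-clusters in the order alpha of cluster 1, alpha of cluster 2, gamma of cluster 1, gamma of cluster 2 and *pcdhb*. Open blue symbols are WT pools and filled red symbols mutant pools. Gamma genes have most mutant pools left of the WT pools, and the alpha genes of cluster 2 with few counts scatter most, down to *pcdh2ab3* in mutant pool 2 with 0 counts.

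In cluster 2, the sum of the alpha genes was 5359, 5115 and 4934 normalized counts in WT and 4131, 3747 and 4851 in the mutant, 82.6% of WT. A single gene held most of it. *pcdh2ab9* (ENSDARG00000101318) had 4483, 4229.7 and 4165 in WT and 3476, 3211 and 4034 in the mutant, and fell by 0.27 on the log2 scale (SE 0.09, limma adjusted p = 0.0375). It was the only alpha gene of cluster 2 that passed the test, but the call was lost in many settings. The adjusted p was 0.0598 with TMM scaling (limma), 0.122 without the variance trend (limma), 0.227 with scaling to the neuron markers (limma), 0.0748 with edgeR and 0.058 with limma-voom. It was 0.0674 to 0.127 (limma) without any 1 library other than mutant pool 3. The other 11 tested alpha genes of this cluster had few counts. A further gene listed as *pcdh2ab9* (ENSDARG00000089874) is *pcdh2ab8* in the reference table of names. Over the 12 tested alpha genes of cluster 2, the median log2 fold change was -0.39, 10 were negative and the median standard error was 0.27. In *pcdh2ab3* (ENSDARG00000102719), the lowest value, -1.67 with a 95% interval from -4.07 to 0.72, came with 43.4, 15.1 and 37.3 normalized counts in WT and 20.5, 0 and 38.1 in the mutant. A count of 0 in mutant pool 2 allows up to 3 reads, or 3.13 normalized counts, by counting error only.

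The only gene listed with a gamma symbol of cluster 2, *pcdh2g28* (ENSDARG00000098788), had the highest count of all 58 genes without correction for length, 24.4% of the clustered sum in WT. It had 9101, 8249 and 8834 normalized counts in WT and 6803, 5768 and 7481 in the mutant. The groups were well apart, and the log2 fold change was -0.39 (SE 0.10, 95% interval -0.61 to -0.18, limma adjusted p = 0.0121). Without it, the remaining clustered genes summed to 80.1% of WT. *pcdhb* (ENSDARG00000077023) had 149, 132 and 142 in WT and 109.6, 178 and 167 in the mutant, where mutant pool 1 was below and the other mutant pools above all WT pools, with a log2 fold change of 0.08 (SE 0.18, limma adjusted p = 0.779).

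Genes that act with protocadherins were counted from lists. Clustered promoters are bound by CTCF and looped by cohesin in mammals, and DNA methylation takes part in promoter choice. Of 27 tested factors of this kind, 4 rose and 5 fell, with a median log2 fold change of -0.07. Both counts are near the shares over all tested genes, 18.9% for those that rose and 15.1% for those that fell, so nothing is read from them about these factors. Those that rose were the DNA methyltransferase genes *dnmt1*, *dnmt3ba*, *dnmt3bb.1* and *dnmt3bb.2*, while *dnmt3aa*, *dnmt3ab* and *dnmt3bb.3* did not pass the test. Those that fell were the cohesin genes *stag1a* and *stag2b*, the loader gene *nipbla* and the release factor genes *wapla* and *waplb*, while the cohesin genes *rad21a*, *rad21b*, *smc1a*, *smc1al*, *smc3*, *stag1b* and *stag2a* did not pass. The log2 fold change was 1.58 for *dnmt3bb.2* (limma adjusted p = 0.0028) and 0.03 for *ctcf* (limma adjusted p = 0.828). *dnmt3bb.2* had few counts, with 16.5, 11.3 and 12.8 in WT and 44.1, 44.8 and 37.3 in the mutant. The WT mean of *ctcf* was 2578.

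Of 14 genes of the WAVE complex, *abi2a*, *abi2b*, *cyfip2* and *wasf3b* fell while *cyfip1* and *wasf2* rose, with a median of -0.14. This list and the next are to be read beside all tested genes, of which 15.1% fell and 18.9% rose. At a mean of at least 500 normalized counts, 34.6% of all tested genes fell and the median was -0.15. Of 7 genes of kinases that bind protocadherins in mammals, *fyna*, *fynb*, *ptk2aa* and *ret* fell and *ptk2bb* rose, with a median of -0.28. In the latter list *ptk2bb* stood far from the others, at 1.13 on the log2 scale (limma adjusted p = 0.00384). It had low counts, with 58.8, 58.4 and 98.2 in WT and 129, 181 and 156 in the mutant.

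Lists of other adhesion genes held decreases as well, to be read beside the 15.1% of all tested genes that fell, the 34.6% that fell at a mean of at least 500 normalized counts, and the median of -0.15 at that level. Of 15 large and seven-pass cadherin and calsyntenin genes, 10 fell and none rose, with a median log2 fold change of -0.36 and a summed level at 77.7% of WT. *fat1b*, a gene of the Fat cadherin family, fell by 0.58 on the log2 scale (limma adjusted p = 0.000726). Of 31 other genes of synaptic adhesion, among them neurexins, neuroligins, teneurins and sidekicks, 17 fell and none rose, with a median of -0.29. The classical cadherins were mixed, with 6 of 16 lower and 4 higher. *cdh2*, the N-cadherin gene, was among those that fell (log2 fold change -0.23, limma adjusted p = 0.0262), and *cdh1*, the E-cadherin gene of epithelia, among those that rose (1.15, limma adjusted p = 7.38e-05). Whether the protocadherin genes differed from these lists was not tested.

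**Figure D5:**
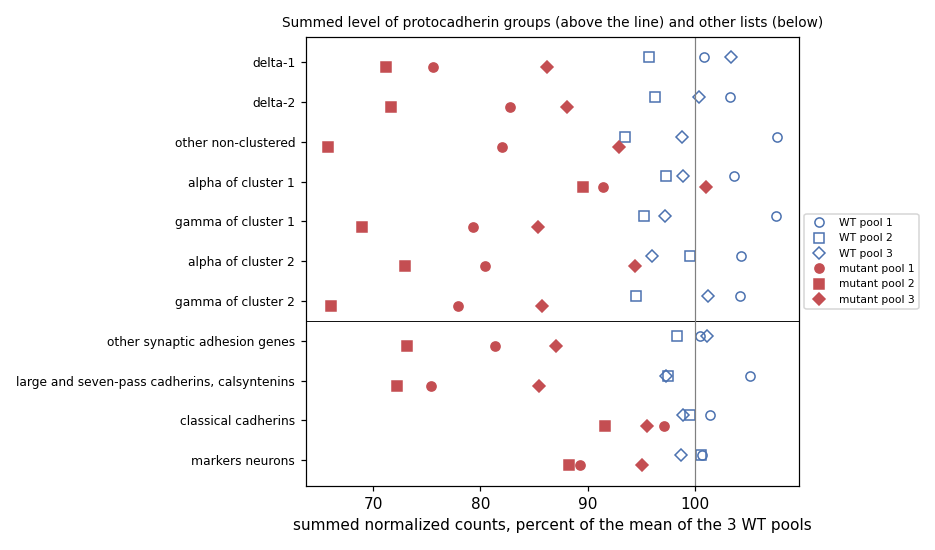
Summed normalized counts of each protocadherin group and, under the line, of the other lists, in each pool as a percent of the mean of the 3 WT pools. Open blue symbols are WT pools and filled red symbols mutant pools. All plotted sums except that of the alpha genes of cluster 1 have all mutant pools below all WT pools. This holds for the classical cadherins and the neuron markers too. Their mutant means were 0.948 of the WT mean for the classical cadherins and 0.909 for the neuron markers.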

How the data were processed

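RNA was extracted from pooled heads and sequenced by the authors (TruSeq mRNA stranded libraries, single-end reads), and the nf-core rnaseq pipeline was used for counting against GRCz11 and an Ensembl annotation. The deposited table holds gene counts divided by the authors by 1 size factor per library, a normalized signal and not raw counts. The authors' deposited DESeq2 comparison (fold changes, p-values) was not used.

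Values were tested as log2(normalized count + 1) with limma version 3.58.1 in R version 4.3.3 (eBayes with a variance trend, genotype as only term), over the 20691 genes that reached 10 normalized counts in 3 or more of 6 libraries. Adjustment followed Benjamini and Hochberg. The added count of 1 makes fold changes of low genes smaller. A single 0 can still pull the mean of the logs far down. In *pcdh2ab3*, with a fitted value of -1.67, the mean normalized counts were 31.9 in WT and 19.5 in the mutant. From the smallest spacing of low values, 100% of the values were recovered as whole reads (tolerance 0.1), and edgeR version 4.0.16, DESeq2 version 1.42.0 and limma-voom were run on these reads as alternatives, with other scalings, filters and pseudocounts. Depth was 15174207 to 18721515 reads on genes, which makes 3 reads equal to 2.60 to 3.20 normalized counts, and such floors cover counting error only. Pools of a group differed by more than sampling noise (chi-square per degree of freedom 5.98 to 16.2). The limma p-values set the difference between groups against a spread between pools that is moderated towards a trend over all genes.

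Genes were matched by symbol without regard to case. Named by rule were all non-clustered genes tested, the 5 clustered genes with the highest mean, and the 6 largest decreases and increases among clustered genes past the test whose groups did not overlap. Other genes were named after their values were seen. Members and lists were chosen with earlier results of these data known, so their counts are a description. Symbols of the reference table were matched by gene identifier and those of the GRCz12tu table by name. Columns were assigned to samples by genotype and Roman numeral.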

Additional observations from a re-analysis of the deposited data

How the results depend on the processing

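The number of protocadherin genes that fell was 23 with edgeR (11% of all tested genes), 27 with DESeq2 (11.6%) and 23 with limma-voom (11%). It was 25 with TMM scaling (11.7%), 28 with scaling to library totals (17%) and 27 without the filter (10.6%). With a pseudocount of 0.5 or 5 it was also 27 (15% and 15.2%). It was 9 in all, 4 clustered and 5 non-clustered, without the variance trend (5.53% of all tested genes). With scaling to the neuron markers, chosen after seeing the data, the numbers were 9, 3 and 6 (4%). At an adjusted p under 0.01 the numbers were 8, 3 and 5 (4.35% of all tested genes), and with the fold limit 4, 3 and 1 (2.68%). With each library left out in turn they ranged from 11 to 32 in all, from 4 to 16 for clustered and from 7 to 16 for non-clustered genes. They were lowest without WT pool 1 (6.21% of all tested genes) and highest without mutant pool 3 (17.9%). Without WT pool 3 they were 15, 7 and 8 (8.25%), and without mutant pool 2 they were 17, 6 and 11 (9.02%). The shares of all tested genes given here are over genes of all levels. In every setting 1 gene rose, *pcdh20l*, and none of the clustered genes did. The series' design text says that each mutant batch was compared with its WT siblings, but not that the replicate number marks the batch. The same-numbered pools shared little, with correlations of 0.04, 0.15 and 0.04 between their deviations. Pools of different numbers had correlations of -0.09 to 0.05. With the replicate number as a block, 29 genes fell (15 clustered, 14 non-clustered), among them all 27, and 1 rose. Over all tested genes, 16% fell and 19.5% rose with this block. The summed levels stayed at 75.0% to 83.8% of WT for clustered and 75.7% to 84.1% for non-clustered genes without single libraries, and both medians stayed negative throughout, from -0.45 to -0.25 and from -0.42 to -0.27. Among the named genes, the sign of the log2 fold change turned for *pcdh18a*, at 0.0924 with the neuron markers and -0.0754 to 0.00899 without single libraries (positive without mutant pool 2), and for *pcdh18b*, at 0.0174 with TMM scaling, 0.0193 with edgeR, 0.0191 with limma-voom, 0.122 with the neuron markers and -0.0507 to 0.0120 without single libraries (positive without mutant pool 1). The cause of these changes was not tested. With 3 pools a group, changes of genes under about 200 normalized counts were estimated with the largest errors.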
